A study of Homo sapiens with 6 samples.

Results

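The genes described here encode the proteasome, namely the subunits named PSMA to PSMG followed by a number, the assembly factor POMP and the ubiquitin receptor ADRM1. They were chosen by a rule on the gene symbol, set with earlier results of these data known, and covered 46 of the 20046 genes named on the array and 74 of its 47231 probes. The RNA came from HeyA8-MDR, an ovarian cancer line of human origin derived from HeyA8 and resistant to several drugs, treated with an siRNA against GRAMD1B (siGRAMD1B, 3 arrays, numbered 2, 3 and 4) or with a control siRNA (siControl, 3 arrays, numbered 1, 2 and 4), and was hybridised to Illumina bead arrays. All arrays come from this 1 line. Neither a dose, a time of treatment nor separate cultures for the arrays of a group are given in the labels, and every p-value therefore covers array-to-array spread that may be purely technical. The question was what reducing GRAMD1B, which encodes a sterol carrier of the endoplasmic reticulum, does to the transcriptome of resistant cells.

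The proteasome is the protease complex that degrades ubiquitin-tagged proteins in the cytosol and nucleus. Its barrel-shaped core, the 20S particle, is built of outer rings of alpha subunits, which gate the entrance, and inner rings of beta subunits, of which PSMB5, PSMB6 and PSMB7 carry the proteolytic sites. A regulatory cap, the 19S particle, binds the ubiquitin chain, and its ATPases unfold the substrate and feed it into the core. In cells exposed to interferon, and constitutively in white blood cells, PSMB8, PSMB9 and PSMB10 replace the 3 catalytic subunits to form the immunoproteasome, whose peptides are loaded on MHC class I. Cancer cells with a high load of misfolded protein depend on proteasome activity, which is why its inhibitors are used as drugs.

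Values are log2 intensities after background correction and normalization between arrays, and every difference is siGRAMD1B minus siControl on that scale. The arrays had median intensities of 109.9 to 128.8 in siGRAMD1B and 102.7 to 120.3 in siControl before normalization, and precision is limited by having 3 arrays a group. The probe for GRAMD1B, the targeted gene, was dim, at 6.26, 6.23 and 6.17 in the siGRAMD1B arrays, against 6.42, 6.41 and 6.57 in the siControl arrays. It was lower in all 3 siGRAMD1B arrays, but the difference of -0.25 ± 0.10 (SE) did not pass over all tested probes (limma adjusted p = 0.15), and an exact 2-sided permutation test gave p = 0.10, below which a design of 3 against 3 cannot go. The line's label was checked against markers. VIM, CDH2, PAX8, KRT8, KRT7, KRT18 and the drug pump gene ABCB1 lay above the 75th percentile of all probes. WT1, FN1 and ZEB1 of the same lists lay below it, at percentiles 69.6, 67.7 and 67.0. The epithelial genes EPCAM, MUC1, KRT19 and CDH1 were dim, at percentiles 57.7, 47.4, 27.2 and 7.77. Of these markers ABCB1 was higher (12.12 in siGRAMD1B and 11.53 in siControl, difference 0.59, limma adjusted p = 0.023), with overlap between the groups, and CDH2 was lower (12.31 in siGRAMD1B and 12.69 in siControl, -0.38, adjusted p = 0.023). Of the endothelial markers, CDH5 was bright (percentile 89.6) and did not pass (-0.18, adjusted p = 0.38), the dim VWF was higher (0.38, adjusted p = 0.033), and PECAM1 did not pass (0.07, adjusted p = 0.78).

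Few proteasome genes passed the test between the groups. Of the 74 member probes, 64 probes from 43 genes were bright enough to be tested (mean above the 40th percentile of all probes), and 1 was higher and 1 was lower at an adjusted p under 0.05 (limma over 28338 probes). The higher one read PSMC3 and the lower one PSMA4. In RNA of whole cultures, fewer cells of a type and less RNA per cell cannot be told apart. Called probes were thus 3.12% of the members tested, beside 7.09% of all tested probes (3.89% higher and 3.21% lower). Of the tested members, 61 lay above the 75th percentile of brightness, where changes are easier to call, and there 3.28% were called beside 13.9% of all probes of that brightness (7.35% higher and 6.55% lower). The median difference over the members tested was 0.00, with a range of -0.38 to 0.43, beside a median of 0.00 over all probes tested. In 33 members the difference was positive and in 31 negative, and the median size of the difference was 0.14, beside 0.11 over all tested probes and 0.15 over the bright ones. The arrays of the groups did not overlap at 15 of the 64 member probes, which is 23.4%, beside 24.1% of all tested probes. At 5 of these all siGRAMD1B arrays were above all siControl arrays (12.3% of all tested probes) and at 10 they were below (11.8% of all tested probes). All 15 were among the bright members, of which they made up 24.6%, beside 36.5% of all bright probes (18.5% above and 18% below). The probes above were of PSMB1, PSMB8, PSMC3, PSMD4 and PSMG4, and those below of PSMA2, PSMA4 (both probes), PSMB5, PSMB7, PSMC6, PSMD5, PSMD10, PSMD12 and PSME3.

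These data bound the changes of most members. The 95% interval of the difference lay within a 1.5-fold change in either direction at 59 of the 64 member probes, which is 92.2%, beside 92.5% of all tested probes. Among the bright members it was 91.8%, beside 85.7% of all bright probes. The 5 probes whose interval reached past 1.5-fold were those of PSMC3, PSMC6, PSMG3 and both of PSMA4, and their intervals reached 0.67 for PSMC3, -0.60 for PSMC6, -0.60 for PSMG3, and -0.59 and -0.60 for PSMA4. The standard errors of the members ran from 0.09 to 0.16. The number of called members ran from 0 to 2 higher and from 0 to 4 lower over the alternative settings, whose counts stand in the closing section.

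**Figure D1:**
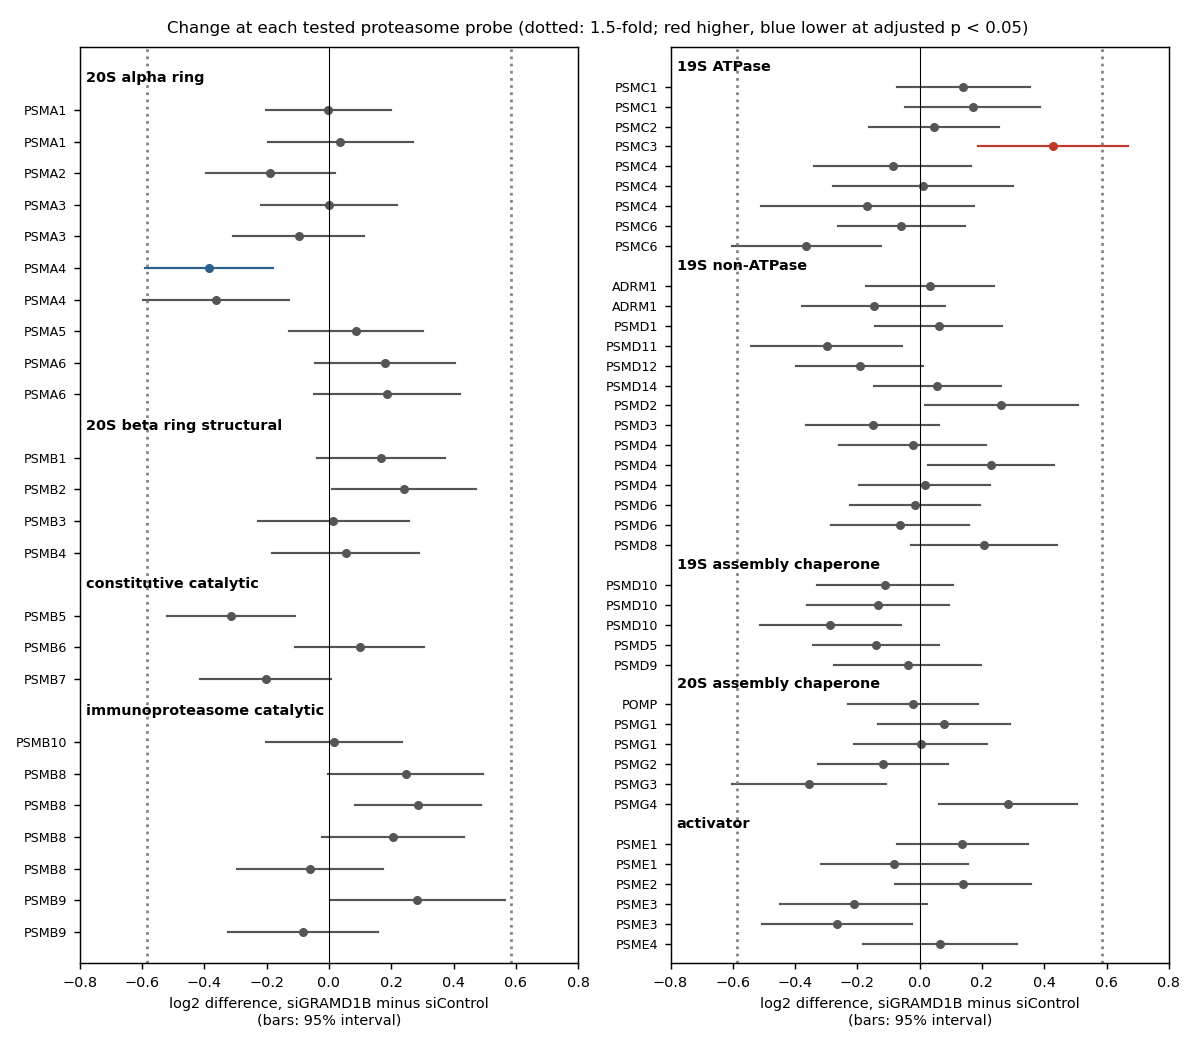
Difference in log2 intensity, siGRAMD1B minus siControl, at each of the 64 tested proteasome probes, grouped by role (points), with the 95% interval of the limma fit (bars) and dotted lines at a 1.5-fold change. The intervals cluster around 0, with PSMC3 the 1 called rise (red) and PSMA4 the 1 called fall (blue).

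PSMA4, a subunit of the outer alpha ring, was lower in siGRAMD1B cells. Its brighter probe (ILMN_2198376) read 11.78, 11.85 and 11.89 in the siGRAMD1B arrays, against 12.29, 12.14 and 12.25 in the siControl arrays. The groups did not overlap, with every siGRAMD1B value the lower. The probe fell by 0.38 on the log2 scale (± 0.10 SE, limma adjusted p = 0.022), a 1.31-fold lower level. The other probe (ILMN_1682098) read 11.09, 10.82 and 10.79 in siGRAMD1B, against 11.25, 11.41 and 11.13 in siControl, again without overlap, and its difference of -0.36 ± 0.11 (SE) missed the threshold (adjusted p = 0.057). The call of the brighter probe was lost without siGRAMD1B replicate 2 (adjusted p = 0.099), replicate 3 (0.062) or replicate 4 (0.055), and without siControl replicate 1 (0.096), and over all 16 alternatives the adjusted p ran from 0.0046 to 0.23.

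PSMC3, an ATPase of the ring in the regulatory cap, was higher in siGRAMD1B cells. Its single probe (ILMN_1809010) read 11.48, 11.49 and 11.60 in the siGRAMD1B arrays, against 10.90, 11.35 and 11.04 in the siControl arrays. The groups did not overlap, and siControl replicate 2 lay closest to the siGRAMD1B arrays. The difference was 0.43 ± 0.11 (SE, adjusted p = 0.029), a 1.35-fold higher level. This call was lost without any 1 of siGRAMD1B replicates 2, 3 and 4 (adjusted p = 0.068, 0.065 and 0.13), without siControl replicate 1 (0.16) or without siControl replicate 4 (0.061), and over all 16 alternatives the adjusted p ran from 0.0050 to 0.27.

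The 250 bases before the annotated starts of these called genes are shown because PSMA4 and PSMC3 moved in opposite directions while both hold a CCAAT box, a common element of promoters. Sequences are from RefSeq on GRCh38.p14, read 5′ to 3′ on the strand of the gene. Capitals mark the CCAAT box and the core of the antioxidant response element (TGACNNNGC), on either strand. PSMA4 has 3 annotated starts in the table used, and a window with the antioxidant response element core is shown (chr15:78540536-78540785, plus strand). That core begins 126 bases before the start. PSMC3 has 1 (chr11:47426440-47426689, minus strand), in which the core was not found.
PSMA4: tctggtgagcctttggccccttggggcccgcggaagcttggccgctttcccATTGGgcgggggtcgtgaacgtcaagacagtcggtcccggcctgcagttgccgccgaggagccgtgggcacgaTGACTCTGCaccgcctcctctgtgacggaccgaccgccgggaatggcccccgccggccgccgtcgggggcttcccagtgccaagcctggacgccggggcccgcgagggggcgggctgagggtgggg
PSMC3: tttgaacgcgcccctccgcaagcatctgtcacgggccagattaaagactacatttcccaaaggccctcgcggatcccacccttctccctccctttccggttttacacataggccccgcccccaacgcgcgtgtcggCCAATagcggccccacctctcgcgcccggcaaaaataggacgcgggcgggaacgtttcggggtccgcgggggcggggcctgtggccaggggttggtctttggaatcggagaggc

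No other gene of the alpha ring passed the test. Of 10 tested probes from 6 genes, 0 rose and 1, that of PSMA4, fell (limma; 2 were at an unadjusted p under 0.05, both of PSMA4), with a median difference of 0.00. PSMA2, a further alpha subunit, read 9.41, 9.33 and 9.30 in siGRAMD1B and 9.59, 9.58 and 9.43 in siControl, without overlap, and its difference was -0.19 (adjusted p = 0.31). PSMA6 gave 0.18 and 0.19 at its probes (adjusted p = 0.39 and 0.40). PSMA1, PSMA3 and PSMA5 lay between -0.10 and 0.09. PSMA8, an alpha subunit of the testis, lay at the floor of the array, at 5.83 ± 0.02 in siGRAMD1B and 5.90 ± 0.08 in siControl (SD, n = 3 each), and was not tested. PSMA7, PSMC5, PSMD7 and PSMD13 were not analysed here.

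The beta subunits without a proteolytic site, PSMB1, PSMB2, PSMB3 and PSMB4, gave positive differences of 0.17, 0.24, 0.01 and 0.05, and 0 of the 4 passed (limma; 1, PSMB2, was at an unadjusted p under 0.05). PSMB1 read 13.82, 13.74 and 13.82 in the siGRAMD1B arrays, against 13.67, 13.52 and 13.68 in the siControl arrays, without overlap (adjusted p = 0.38). PSMB2 read 11.26, 11.21 and 11.39 in siGRAMD1B, against 11.07, 11.22 and 10.85 in siControl (adjusted p = 0.23).

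Among the constitutive catalytic subunits, PSMB5 showed the difference farthest from 0. PSMB5, which carries the chymotrypsin-like site and is the main target of the proteasome inhibitor bortezomib, read 11.77, 11.59 and 11.72 in the siGRAMD1B arrays, against 12.03, 12.01 and 11.98 in the siControl arrays. The groups did not overlap, but the difference of -0.31 ± 0.10 (SE) missed the threshold (adjusted p = 0.061). It passed, with the same sign, in 5 of 16 alternatives, with adjusted p-values from 0.014 with the deposited normalized values to 0.53 over all of them. PSMB7, with the trypsin-like site, read 13.21, 13.40 and 13.44 in siGRAMD1B, against 13.52, 13.58 and 13.55 in siControl, without overlap, and differed by -0.20 ± 0.10 (SE, adjusted p = 0.28). PSMB6, with the caspase-like site, read 12.81, 12.89 and 12.90 in siGRAMD1B, against 12.87, 12.74 and 12.70 in siControl, with overlap, and differed by 0.10 ± 0.10 (SE, adjusted p = 0.66).

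Of the immunoproteasome subunits, 0 of 7 tested probes passed (limma; 2, of PSMB8 and PSMB9, were at an unadjusted p under 0.05). PSMB8, which takes the place of PSMB5, was read by 4 probes. The first probe of its NM_148919 transcript (ILMN_1747195) read 8.97, 8.99 and 9.08 in the siGRAMD1B arrays, against 8.68, 8.72 and 8.78 in the siControl arrays. At this PSMB8 probe the groups did not overlap, and the difference was 0.29 ± 0.10 (SE, adjusted p = 0.087), which passed in 3 of 16 alternatives (adjusted p from 0.029 to 0.47). The second probe of that transcript (ILMN_1767006) read 8.37, 8.25 and 8.46 in siGRAMD1B, against 8.09, 8.34 and 8.03 in siControl, a difference of 0.21 (adjusted p = 0.32). The brighter probe of the NM_004159 transcript of PSMB8 (ILMN_2390299) read 9.17, 8.94 and 8.99 in siGRAMD1B, against 9.03, 8.77 and 8.57 in siControl, a difference of 0.25 (adjusted p = 0.26). At both of these probes 1 siControl array reached into the range of the siGRAMD1B arrays. The remaining PSMB8 probe (ILMN_2284794) was dim, with 6.42, 6.15 and 6.13 in siGRAMD1B, against 6.14, 6.29 and 6.44 in siControl, and differed by -0.06 (adjusted p = 0.84).

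PSMB9, which takes the place of PSMB6, read 7.90, 7.58 and 8.23 in the siGRAMD1B arrays, against 7.50, 7.63 and 7.72 in the siControl arrays, at its brighter probe (ILMN_2376108). The siGRAMD1B arrays spread over a wide range that included siControl values, and the difference was 0.28 ± 0.13 (SE, adjusted p = 0.25). The dimmer PSMB9 probe (ILMN_1798233) read 6.77, 6.58 and 6.64 in siGRAMD1B, against 6.95, 6.52 and 6.76 in siControl, a difference of -0.08 (adjusted p = 0.77). PSMB10, which takes the place of PSMB7, read 11.69, 11.69 and 11.88 in siGRAMD1B, against 11.70, 11.86 and 11.65 in siControl, a difference of 0.02 ± 0.10 (SE, adjusted p = 0.96) whose sign turned under some settings. The thymus-specific catalytic subunit gene PSMB11 lay at the floor at both its probes, with means of 6.23 and 5.89 in siGRAMD1B and 6.07 and 6.05 in siControl, and was not tested.

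**Figure D2:**
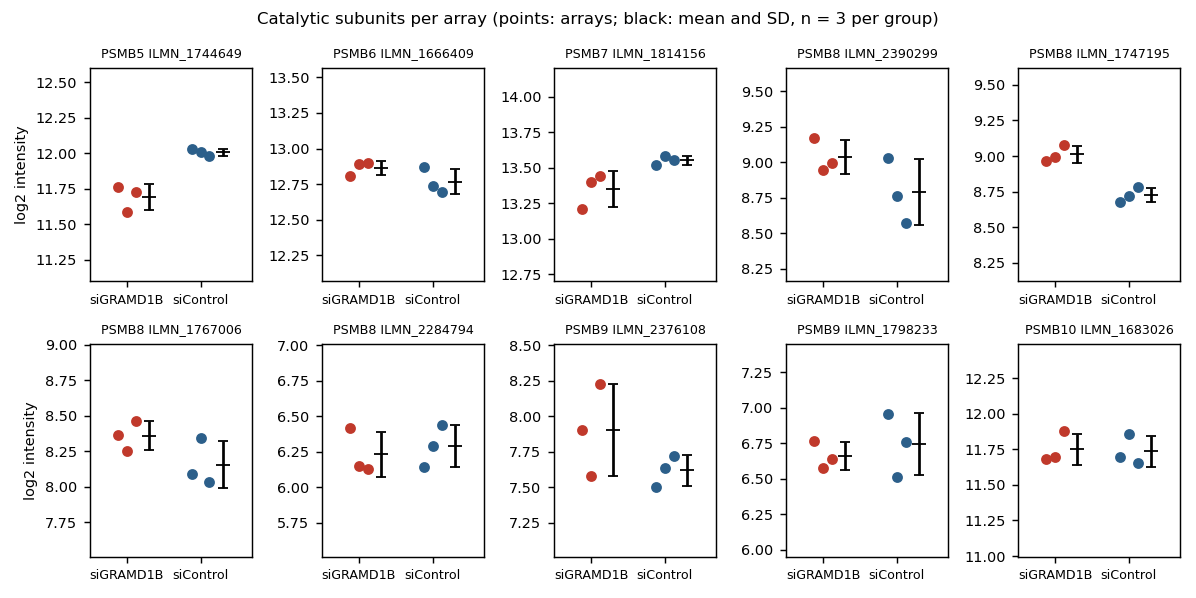
Log2 intensity in each array (points) with the group mean and SD (black, n = 3 per group) at each tested probe of the constitutive catalytic subunits PSMB5, PSMB6 and PSMB7 and of the immunoproteasome subunits PSMB8, PSMB9 and PSMB10. Every panel spans the same height. The groups are apart at PSMB5, at PSMB7 and at 1 of the 4 PSMB8 probes (ILMN_1747195).

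Within an array, the immunoproteasome subunit minus its constitutive partner was higher in siGRAMD1B than in siControl, without overlap, at 2 of the 3 sites. Groups did not overlap at 24.1% of all tested single probes and 36.5% of the bright ones, and the share among pairs of probes was not computed. Levels of different probes cannot be compared, so each probe was first centred on its siControl mean, and the brightest probe stood for each gene. For PSMB8 minus PSMB5 the values were 0.62, 0.57 and 0.49 in the siGRAMD1B arrays, against 0.22, -0.03 and -0.19 in the siControl arrays, so the groups did not overlap and the pair shifted by 0.56. With the other PSMB8 probes the shift was 0.60 and 0.52 without overlap, and 0.25 with overlap at the dim probe. For PSMB10 minus PSMB7 the values were 0.30, 0.11 and 0.25 in siGRAMD1B, against -0.01, 0.09 and -0.08 in siControl, a shift of 0.22 without overlap. For PSMB9 minus PSMB6 the values were 0.24, -0.17 and 0.48 in siGRAMD1B, against -0.22, 0.05 and 0.17 in siControl, a shift of 0.19 with overlap that turned to -0.18 with the dimmer PSMB9 probe. No p-value is given for these pairs, since they were compared with earlier results of these data known. A shift of a pair by itself shows unequal change and not which partner moved. Singly, PSMB8 differed by 0.25 and PSMB5 by -0.31, PSMB10 by 0.02 and PSMB7 by -0.20, and PSMB9 by 0.28 and PSMB6 by 0.10. None of these passed. With each array left out in turn, the shift of PSMB8 minus PSMB5 ran from 0.47 to 0.67 and that of PSMB10 minus PSMB7 from 0.18 to 0.27. That of PSMB9 minus PSMB6 ran from 0.04 to 0.36, lowest without siGRAMD1B replicate 4.

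**Figure D3:**
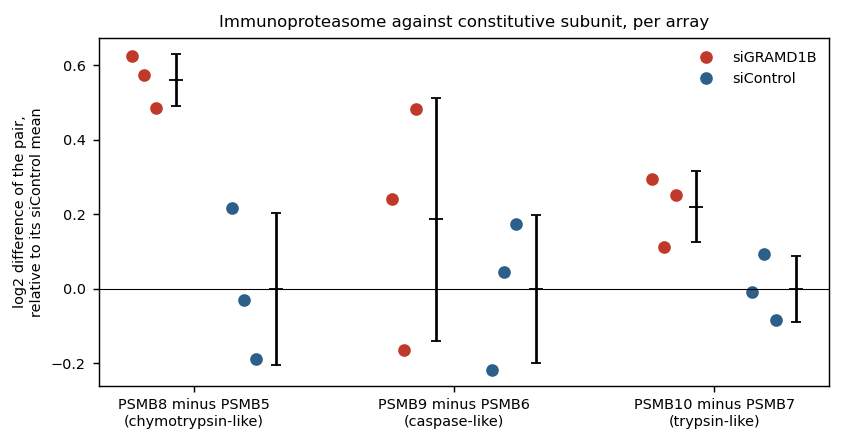
Log2 intensity of the immunoproteasome subunit minus that of its constitutive partner, in each array (points), after each probe was centred on its siControl mean, with group mean and SD (black, n = 3 per group). The siGRAMD1B arrays lie above all siControl arrays for PSMB8 minus PSMB5 and for PSMB10 minus PSMB7, and overlap with them for PSMB9 minus PSMB6.

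White blood cells express the immunoproteasome, so their markers were read beside it. Of 8 marker genes, 7 were tested and 1, CD68, which is also a lysosomal membrane protein of many cell types, was higher (difference 0.37, adjusted p = 0.023), while the defining markers PTPRC (6.17 in siGRAMD1B and 6.19 in siControl) and CD3E (6.05 in siGRAMD1B and 5.98 in siControl) lay at the floor. HLA-DRA, the only other marker of the list above the 75th percentile, averaged 7.75 ± 0.03 in siGRAMD1B and 7.98 ± 0.16 in siControl (SD, n = 3 each), a difference opposite in sign to that of CD68 that did not pass (-0.22, adjusted p = 0.24). The groups did not overlap at HLA-DRA, and they overlapped at CD14, LYZ, CD74, SPI1, PTPRC and CD3E. The summed linear level of the 8 genes was 4087 to 4320 in siGRAMD1B and 3369 to 3529 in siControl, most of it from CD68, whose mean intensity before correction was 3519 in siGRAMD1B and 2779 in siControl. The part of CD68 and its list in the immunoproteasome values was not tested.

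The proteasome activators gave no call (0 of 6 probes by limma; 1, of PSME3, at an unadjusted p under 0.05). PSME1 and PSME2, which form the interferon-inducible cap that opens the core without ubiquitin, differed by 0.14 each (adjusted p = 0.51 and 0.52). PSME1 read 11.99, 12.19 and 12.19 in the siGRAMD1B arrays, against 12.01, 11.97 and 11.97 in the siControl arrays. PSME2 read 12.46, 12.35 and 12.55 in siGRAMD1B, against 12.17, 12.39 and 12.38 in siControl. Both genes thus overlapped between the groups. A dim PSME1 probe (ILMN_1726698) read 6.33, 6.28 and 6.33 in siGRAMD1B, against 6.63, 6.36 and 6.19 in siControl, a difference of -0.08 (adjusted p = 0.77). PSME3, which forms the nuclear activator, read 9.80, 9.88 and 9.91 in siGRAMD1B, against 10.01, 9.98 and 10.39 in siControl, at one probe without overlap (-0.27, adjusted p = 0.20). Its other probe read 10.05, 10.04 and 9.74 in siGRAMD1B, against 10.19, 10.01 and 10.26 in siControl (-0.21, adjusted p = 0.31). PSME4, the large single-chain activator, read 10.55, 10.72 and 10.53 in siGRAMD1B, against 10.43, 10.37 and 10.81 in siControl (0.06, adjusted p = 0.83). The probe of the inhibitor gene PSMF1 lay at the floor and was not tested (6.13 ± 0.14 in siGRAMD1B and 6.07 ± 0.21 in siControl, SD, n = 3 each).

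In the regulatory cap, the ATPase genes other than PSMC3 gave no call. Of 9 tested ATPase probes from 5 genes, 1 rose and 0 fell (limma; 2 at an unadjusted p under 0.05). PSMC6 was read by a pair of probes that differed from each other. The dimmer PSMC6 probe (ILMN_2096759) read 9.07, 9.45 and 9.17 in the siGRAMD1B arrays, against 9.72, 9.47 and 9.59 in the siControl arrays, without overlap, and differed by -0.36 ± 0.11 (SE, adjusted p = 0.062), whereas the brighter one differed by -0.06 (adjusted p = 0.81). The PSMC4 gene was high in siControl replicate 2 at all 3 of its probes. At the probe of PSMC4 with the widest spread it read 9.12, 8.84 and 8.91 in siGRAMD1B, against 8.89, 9.66 and 8.82 in siControl, and the PSMC4 differences were -0.17, -0.09 and 0.01 (adjusted p = 0.65, 0.77 and 0.98). PSMC1 gave 0.14 and 0.17 and PSMC2 gave 0.05.

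Of the non-ATPase subunits of the cap, 0 of 14 probes from 10 genes passed (limma; 3 at an unadjusted p under 0.05), with a median difference of 0.00. PSMD2, a large scaffold subunit, read 12.76, 12.82 and 12.60 in the siGRAMD1B arrays, against 12.45, 12.25 and 12.70 in the siControl arrays, with overlap, a difference of 0.26 (adjusted p = 0.22). PSMD11 differed by -0.30 (adjusted p = 0.14), and PSMD1, PSMD3, PSMD6, PSMD8 and PSMD12 lay between -0.19 and 0.21. The ubiquitin receptor gene ADRM1 read 12.50, 12.55 and 12.50 in siGRAMD1B, against 12.51, 12.39 and 12.56 in siControl, at its brighter probe (0.03, adjusted p = 0.90). The dimmer ADRM1 probe read 10.79, 10.87 and 10.92 in siGRAMD1B, against 11.18, 11.05 and 10.80 in siControl (-0.15, adjusted p = 0.52). Another ubiquitin receptor, PSMD4, gave 0.23, 0.02 and -0.02 at its 3 probes, of which only the first had groups that did not overlap (adjusted p = 0.19). PSMD14, the deubiquitinase that strips the chain from the substrate, differed by 0.06 (adjusted p = 0.82).

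Assembly factors gave no call either. Of 6 tested probes of the core's chaperones, 0 passed (limma; 2 at an unadjusted p under 0.05), and those 2 had opposite signs. PSMG3 read 7.68, 8.06 and 7.74 in the siGRAMD1B arrays, against 8.18, 8.35 and 8.02 in the siControl arrays, a difference of -0.36 ± 0.12 (SE, adjusted p = 0.080). PSMG4, which binds PSMG3, read 9.36, 9.40 and 9.45 in siGRAMD1B, against 9.05, 9.31 and 9.00 in siControl, without overlap, a difference of 0.28 ± 0.11 (SE, adjusted p = 0.13). POMP, which guides the beta ring into place, read 13.72, 13.78 and 13.58 in siGRAMD1B, against 13.68, 13.78 and 13.68 in siControl (-0.02, adjusted p = 0.95). PSMG1 and PSMG2, which pair to build the alpha ring, lay between -0.12 and 0.08. The chaperones of the cap, PSMD5, PSMD9 and PSMD10, gave 5 negative differences from -0.29 to -0.04, of which 0 passed (limma; 1 at an unadjusted p under 0.05).

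Probes of the same gene set a scale for these differences. At 16 member genes with several tested probes, the lowest and highest difference of a gene lay a median of 0.14 apart. The median size of a single probe's difference, which is another measure, was also 0.14. In 8 of the 16 genes all probes had the same sign. The widest spreads, of PSMB9 (0.37) and PSMB8 (0.35), each involve the gene's dimmest tested probe, and the processing understates changes of dim probes. The probes that were not tested numbered 10, and 6 of them were second probes of genes with a bright one. One POMP probe, for example, averaged 6.01 in siGRAMD1B and 6.06 in siControl, and 3 of the 4 PSMD12 probes were likewise too dim.

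NFE2L1, the transcription factor that raises proteasome subunit genes when proteasome activity falls short, was itself higher. It is made as a protein of the endoplasmic reticulum and becomes active after NGLY1 removes its glycans and DDI2 cleaves it. NFE2L1 read 9.60, 9.71 and 9.68 in the siGRAMD1B arrays, against 8.98, 8.86 and 8.73 in the siControl arrays. The groups lay far apart, with a difference of 0.81 ± 0.10 (SE, adjusted p = 6.33e-05), a 1.75-fold higher level. MAFF, which encodes a small MAF partner of such factors, averaged 9.65 ± 0.10 in siGRAMD1B and 8.97 ± 0.08 in siControl (SD, n = 3 each) at its brightest probe, a difference of 0.68 (adjusted p = 0.00031). Its other probes gave 0.38 (adjusted p = 0.046) and 0.15 (adjusted p = 0.60). In the list of NFE2L1 and its partners and regulators, 2 of 10 measured genes rose, 0 fell and 8 did not pass, with a median difference of 0.02. Of all tested probes, 3.89% rose and 3.21% fell (7.35% and 6.55% of the bright ones). NGLY1 (-0.24, adjusted p = 0.20), DDI2 (-0.13, adjusted p = 0.55) and the related factor NFE2L2 (-0.15, adjusted p = 0.44) did not pass. With the ordinary test per probe, which takes each probe's own spread, NFE2L1 (adjusted p = 0.055) and MAFF (adjusted p = 0.064) missed the threshold, and in the other 15 alternatives both passed.

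**Figure D4:**
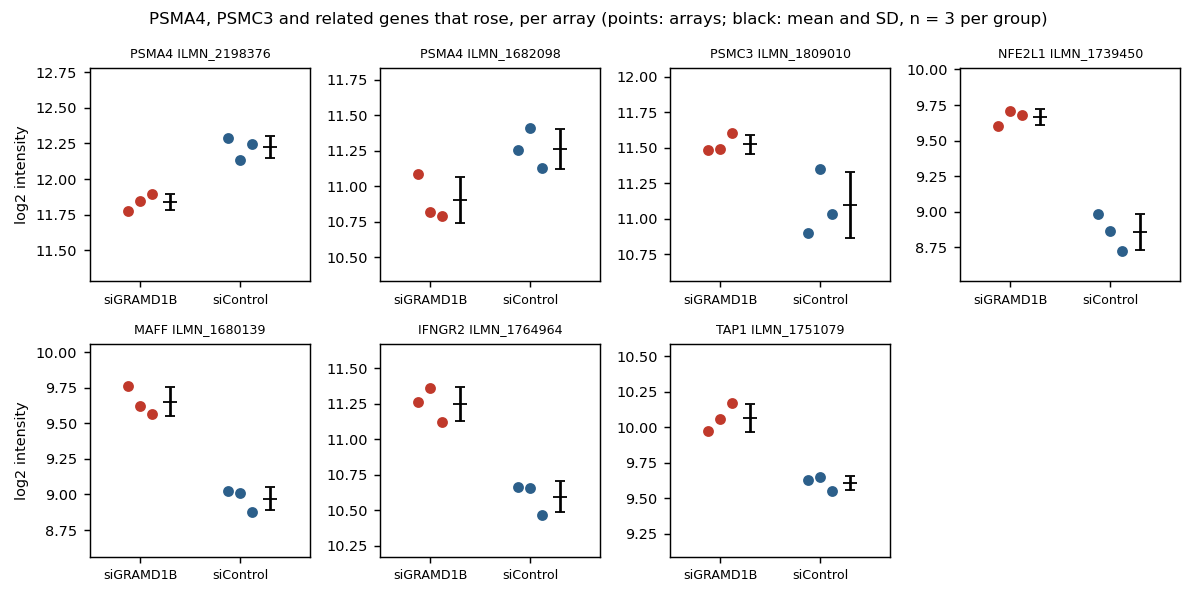
Log2 intensity in each array (points) with the group mean and SD (black, n = 3 per group) at both PSMA4 probes, at PSMC3, and at NFE2L1, MAFF, IFNGR2 and TAP1, genes of related lists. Every panel spans the same height, and the groups are apart in every panel, by most at NFE2L1.

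NFE2L1 binds antioxidant response elements, and the core of that element, TGACNNNGC, was searched on both strands of the 250 bases before each annotated start. It was found in 14 of 50 windows of the member genes (28%), beside 10.9% of all 35116 windows of the table. Several windows can belong to 1 gene and overlap, and the member windows had a median GC content of 61.8%, beside 58% in all windows. At the gene level 13 of the 41 member genes with a window held the core, among them ADRM1, PSMA4, PSMB9, PSMD12, PSME1, PSME2 and PSMG1. Of these 13, all tested, 0 rose and 1, PSMA4, fell, with a median difference of 0.01 and a range of -0.38 to 0.28. Of the 25 tested member genes whose windows lacked it, 1, PSMC3, rose and 0 fell, with a median of 0.05. The CCAAT box was in 19 of the 50 member windows (38%, beside 32% of all windows). The core of the interferon-stimulated response element, searched as GAAA and again GAAA with any 2 bases between, was in 5 (10%, beside 3.02%). The gamma-activated site, TTCNNNGAA, was in 7 (14%, beside 6.57%), and the NF-kB core, searched as GGGA and TTCC with any 2 bases between, was in 0 (beside 1.4%). Each was searched on both strands, and a match is a description of letters and not of binding.

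Around the immunoproteasome, 2 of 15 measured interferon regulators and antigen-processing genes rose, 0 fell and 13 did not pass, with a median difference of 0.03. Of all tested probes, 3.89% rose and 3.21% fell (7.35% and 6.55% of the bright ones). IFNGR2, a chain of the interferon gamma receptor, averaged 11.25 ± 0.12 in siGRAMD1B and 10.60 ± 0.11 in siControl (SD, n = 3 each), a difference of 0.65 (adjusted p = 0.00063). TAP1, a chain of the peptide transporter that carries proteasome products to MHC class I, read 9.97, 10.06 and 10.17 in the siGRAMD1B arrays, against 9.63, 9.65 and 9.55 in the siControl arrays, a difference of 0.46 ± 0.10 (SE, adjusted p = 0.0078). The TAP1 call was lost in 4 of 16 alternatives, namely without siGRAMD1B replicate 4 (adjusted p = 0.054), with the replicate block (0.058), with an offset of 16 (0.068) and with the ordinary test (0.085), over a range from 0.0016 to 0.085. TAPBP (0.29, adjusted p = 0.084), IRF1 (0.03, adjusted p = 0.90), a factor that drives immunoproteasome genes, and the other transporter chain TAP2 (-0.21, adjusted p = 0.28) did not pass. Dimmer probes differed in sign from these, with -0.13 and -0.11 for TAPBP (adjusted p = 0.55 and 0.70) and 0.02 for TAP2 (adjusted p = 0.97).

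TAP1 and PSMB9 are transcribed in opposite directions from neighbouring starts, 488 bases apart for the nearest annotated pair. TAP1 was called and PSMB9, at 0.28, was not, and whether their changes differ was not tested. The window before the start of PSMB9 (chr6:32853942-32854191, plus strand, RefSeq on GRCh38.p14) lies in the stretch that both genes share. It is shown because it holds the antioxidant response element core, here on the opposite strand, and a CCAAT box, both in capitals.
PSMB9: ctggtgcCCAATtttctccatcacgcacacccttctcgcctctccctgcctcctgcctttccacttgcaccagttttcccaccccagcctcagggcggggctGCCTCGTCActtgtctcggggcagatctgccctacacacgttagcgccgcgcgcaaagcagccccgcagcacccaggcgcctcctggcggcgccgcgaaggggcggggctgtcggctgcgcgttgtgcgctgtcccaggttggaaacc

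Genes of 5 further lists, most of which deliver substrates to the proteasome or handle its products, passed at few members. Among ubiquitin genes and activating enzymes 0 of 3 rose or fell by limma (0 at an unadjusted p under 0.05; median -0.01), with UBA6 at -0.11, UBA1 at 0.06 and UBB at -0.01 (adjusted p = 0.65, 0.82 and 0.97). Among shuttle factors 0 of 8 rose or fell by limma (3 at an unadjusted p under 0.05; median -0.02), with BAG6 at 0.35 (adjusted p = 0.061), RAD23B at -0.26 (adjusted p = 0.12) and SQSTM1 at 0.25 (adjusted p = 0.15). Among proteasome-bound enzymes and accessory factors 1 of 12 rose and 0 fell (median -0.04). This was the ubiquitin ligase gene UBE3A, which averaged 9.40 in siGRAMD1B and 8.95 in siControl (difference 0.45, adjusted p = 0.019), and at its other probe 8.99 in siGRAMD1B and 8.52 in siControl (0.47, adjusted p = 0.0051). The cap subunit SEM1 (0.26, adjusted p = 0.13) and the deubiquitinases UCHL5 (-0.29, adjusted p = 0.10) and USP14 (-0.18, adjusted p = 0.42) did not pass. Among VCP, the segregase that extracts ubiquitinated proteins, and its cofactors 1 of 10 rose, the chain-elongating ligase gene UBE4B (0.36, adjusted p = 0.042), and 0 fell (median 0.03), with UFD1 at -0.25 (adjusted p = 0.17) and NSFL1C at 0.13 (adjusted p = 0.50). Among peptidases 1 of 11 rose and 1 fell (median -0.02). The one that rose was LONP1 (0.61, adjusted p = 0.0017), a protease of the mitochondrial matrix that is not known to act on proteasome products, and the one that fell was LAP3, a cytosolic aminopeptidase (-0.41, adjusted p = 0.030), and NRDC, which cleaves peptides at basic residues, differed by 0.34 (adjusted p = 0.083). Over these lists together with those of NFE2L1 and of the interferon regulators, 7 of 68 measured genes rose and 1 fell. The shares of all tested probes were 3.89% higher and 3.21% lower (7.35% and 6.55% of the bright ones). Calls were lost without 1 array for UBE3A at its brighter probe (without siGRAMD1B replicate 2 or 3 or siControl replicate 2, adjusted p = 0.078, 0.091 and 0.087). The LAP3 call was lost without siGRAMD1B replicate 2 or 4 or siControl replicate 1 or 4 (adjusted p = 0.073, 0.16, 0.088 and 0.077). For UBE4B it was lost without any array but siControl replicate 4 (adjusted p = 0.070 to 0.15). The calls of UBE3A, LAP3 and UBE4B were also lost with the offset of 16, median centring, the ordinary test and the replicate block. That of UBE4B was lost with no filter too (adjusted p = 0.054). Of 16 alternatives, 7 lost the call of UBE3A, 8 that of LAP3, 10 that of UBE4B and 1 that of LONP1.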

How the data were processed

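RNA was labelled as biotin cRNA for Illumina bead arrays, per the labels' protocols, and BeadStudio made the export, per the submitters' processing notes. The deposited table holds a linear intensity per probe that is not normalized between arrays. Its header is offset by 1 field against the values, which was corrected (Spearman's rho 1.00 with the same array of the second table, at most 0.854 with another). The second deposited table holds the authors' log2 values, normalized by a method not given in the sources used here (median 6.86 in every column). Columns of other samples numbered 0.

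Intensities were background-corrected by normexp (offset 50), quantile-normalized and log2-transformed, which understates changes of dim probes. Probes whose mean exceeded the 40th percentile (6.16) were tested with limma 3.58.1 in R 4.3.3 (lmFit and eBayes, 2-sided, 17.9 degrees of freedom), with Benjamini-Hochberg adjustment over all 28338, and the fit was tested on simulated data. Alternatives were no background correction, another offset, median centring, the deposited values, 2 other filters, trend and robust options, array weights, an ordinary test per probe, a replicate block and each array left out. Intervals are 95%. The symbols came from GEO's platform annotation (30113 probes with 1 symbol, 8 with several, 17110 unnamed here). Members and lists were chosen with earlier results of these data known. Values per array are given for called members, catalytic subunits, activators, POMP, ADRM1 and the 2 largest uncalled rises and falls among the rest. In lists the brightest tested probe stands for a gene, with up to 3 genes of smallest p named. The members of which other values are printed, and IRF1, TAP2, NFE2L2, DDI2 and USP14, were chosen after their values were seen.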

Additional observations from a re-analysis of the deposited data

How the results depend on the processing

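In the main analysis 1 member probe was higher and 1 lower (1 gene each). There were 2 higher and 4 lower probes (2 and 3 genes) with no background correction, and likewise with the filter at the 70th percentile or the deposited normalized values. With trend and robust options there were 1 higher and 3 lower probes (2 genes lower), and with array weights 1 higher and 3 lower (3 genes lower). Median centring gave 0 higher and 1 lower. The offset of 16, the ordinary test per probe and the replicate block gave 0 higher and 0 lower. With 1 array left out, members numbered 0 to 2 higher and 0 to 3 lower (0 to 2 genes each). Genes of the related lists (7 higher, 1 lower) were 11 and 2 with no background correction, 12 and 3 with the deposited values, 4 and 0 with the offset of 16, 0 and 0 with the ordinary test, 4 and 0 with the replicate block, 0 lower with median centring and 2 lower with trend and robust options. With 1 array left out, 0 to 1 were lower. Over all probes, the 1101 higher and 909 lower became 449 and 234 with the offset of 16, 603 and 419 with median centring, 164 and 92 with the ordinary test and 578 and 409 with the replicate block.

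Replicate numbers 2 and 4 occur in both groups. Deviations from the group means correlated at 0.02 and -0.15 across probes in the same-numbered arrays, and at -0.18 to 0.19 in arrays of different number. Deviations within a group of 3 sum to 0, so these few values cannot tell whether same-numbered arrays share more than a number. With the replicate block PSMA4 (-0.36, adjusted p = 0.23) and PSMC3 (0.35, 0.26) did not pass. Settings were followed probe by probe for the catalytic subunits, activators, POMP, ADRM1, PSMA4, PSMC3, PSMC6, PSMG3, PSMG4 and PSMD2, and not for the other members. Among these, signs turned at 7 probes, whose differences lay between -0.08 and 0.06. Median centring gave -0.022 for PSMB10 and -0.036 for ADRM1 (ILMN_1760143), and the block gave 0.056 for PSME1 (ILMN_1726698), -0.049 for PSME4 and 0.065 for PSMB9 (ILMN_1798233). With 1 array left out, the ranges that crossed 0 were -0.016 to 0.070 for ADRM1 (ILMN_1760143), -0.064 to 0.035 for POMP (ILMN_1693287), -0.046 to 0.080 for PSMB10 (ILMN_1683026), -0.15 to 0.015 for PSMB8 (ILMN_2284794), -0.20 to 0.023 for PSMB9 (ILMN_1798233), -0.18 to 0.039 for PSME1 (ILMN_1726698) and -0.017 to 0.20 for PSME4 (ILMN_1763540). PSMC3 also missed the threshold with median centring (adjusted p = 0.14). The causes were not tested. Depth is limited by signal over background at dim probes.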
